A study of Mus musculus with 2 samples.

Results

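The mouse cytochrome P450 genes were taken as all autosomal protein-coding genes of GENCODE M21 whose symbol is Cyp, a family number, a letter and a member number, plus Cyp51. This gave 99 genes of 20807. Symbols with a further letter after the member number (5 genes, Cyp3a41a, Cyp3a41b, Cyp4a12a, Cyp4a12b and Cyp4a30b) were counted in, and 94 matched without it. They were sorted by known role into 7 cholesterol genes, 7 forms studied in brain, 5 steroid hormone genes, 5 vitamin D and retinoic acid genes, 54 genes of the hepatic drug-metabolising families, 19 fatty acid hydroxylases of family 4 and 2 others.

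The data are DNase-seq maps of open chromatin in the right cerebral cortex of adult female mice aged 18 to 20 months. The animals were B6CASTF1/J, the first-generation hybrids of C57BL/6J and CAST/EiJ, so each cell carries a genome of both strains. The series has 2 biological replicates in 1 group, and holds neither a treated nor a control group. Both carry the same donor identifier although they are labelled as separate biosamples, so part of the spread between them may be technical. In bulk tissue, fewer cells with an open site and less opening per cell cannot be told apart.

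Cytochrome P450s are heme enzymes that insert an oxygen atom into lipids, hormones and foreign compounds, with electrons passed on by a reductase or by ferredoxin. Most members of families 1 to 3 are made in liver, where they clear drugs and plant toxins, and many of their genes lie side by side in arrays of near copies. A smaller set has fixed physiological substrates. In the brain, which makes its own cholesterol behind the blood-brain barrier, Cyp51 acts in cholesterol synthesis and Cyp46a1, made mainly by neurons, hydroxylates cholesterol so that it can leave the tissue.

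Promoters were taken as windows reaching 500 bp to each side of a gene's start sites. A promoter was called open when an accessible region (peak) of both replicates overlapped it, and the strongest such peak gave its value in each replicate. The values are the authors' deposited signal, on a scale that the sources used here do not define. Replicate 1 had 86601 peaks and replicate 2 had 88482. All values were whole multiples of 1 step, which, if a step is 1 read per M reads (M for mega), gives depths of 201 M and 112 M. Promoter values of all genes were 1.41-fold higher in replicate 2 at the median, and 93.7% of genes with a peak in both were higher there, so each SD below holds that shift. Among marker genes, 4 of 5 neuronal, 3 of 4 astrocyte and 2 of 3 oligodendrocyte genes were open, against 59.1% of all genes. These lists are too short to tell their shares from that of all genes, and the tissue label was not tested. None of 4 hepatocyte markers was open in either replicate. All 4 had an observed over expected CpG ratio below 0.4, where 18.5% of all genes were open. Their missing peaks therefore say little. None of 3 microglial and none of 3 choroid plexus markers was open in both, and 1 of 4 endothelial and mural markers was.

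In these windows of 500 bp, the cholesterol and brain genes were open about as often as genes at large, and the drug-metabolising genes almost never. Over all 20807 genes, 59.1% were open in this sense. Of the 99 P450 genes 18 did (18.2%). The cholesterol genes had 4 of 7 open and the brain forms 4 of 7, which is 57.1% of the 14. Of the 54 drug-metabolising genes 2 were open (3.70%), and the other 52 had no peak in either replicate. The fatty acid hydroxylases had 5 of 19 open, the steroid hormone genes 1 of 5, the vitamin D and retinoic acid genes 1 of 5 and the others 1 of 2. In replicate 1, 19 members had a peak, against 60.6% of all genes, and in replicate 2 20 did, against 61.6%. Only 3 members had a peak in 1 replicate alone. They were Cyp2d22 in replicate 1, and Cyp27a1 and Cyp19a1 in replicate 2. Against 63.1% of all genes with a peak in either replicate, 21 of the 99 members had one.

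**Figure D1:**
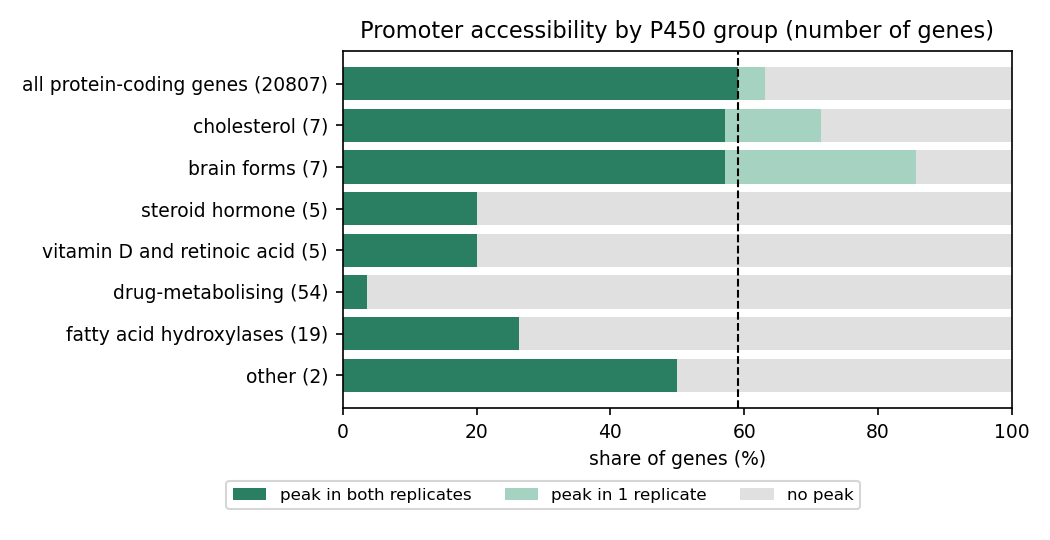
Share of genes (horizontal axis, percent) with a promoter peak in both replicates (dark), in 1 replicate (light) or in neither (grey), for all protein-coding genes and for each P450 group, with the number of genes in brackets. The dashed line marks 59.1%, the share of all genes open in both; the cholesterol and brain groups end near it at 57.1%, and the drug-metabolising bar ends at 3.70%.

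Cyp46a1, the neuronal cholesterol hydroxylase, had the strongest promoter of the family by a wide margin. Its value was 6.61 in replicate 1 and 9.49 in replicate 2 (8.05 ± 2.03, SD, n = 2). The lower of its values was above the value of each other member in either replicate, the next highest being 3.35. Among the 12289 genes open in both replicates it ranked 71st, at the 99.4th percentile. If a step is 1 read, its peak held 1330 reads (exact 95% Poisson interval 1259 to 1403) and 1064 (1001 to 1130), intervals that cover counting error only. The gene lies on the plus strand at chr12:108334381-108362234 (mm10), and the midpoints of its single promoter peak lay 231 bp and 201 bp before the annotated start. A region 1081 bp upstream, in intergenic sequence, had 1.50 and 2.17, and one in an intron 4482 bp downstream had 1.15 and 0.856.

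Within the Cyp46a1 peak the deposited footprints, short stretches protected from DNase I, covered much of the sequence. They are shown here beside the promoters of Cyp51 and Cyp20a1, which had mid-range values. The sequences are the 250 bases before the RefSeq start site (GRCm38.p6), 5′ to 3′ on the gene's strand, with bases inside a footprint of both replicates in capitals. They lie at chr12:108334066-108334315 (plus strand) for Cyp46a1, chr5:4104698-4104947 (minus strand) for Cyp51 and chr1:60343050-60343299 (plus strand) for Cyp20a1.
Cyp46a1: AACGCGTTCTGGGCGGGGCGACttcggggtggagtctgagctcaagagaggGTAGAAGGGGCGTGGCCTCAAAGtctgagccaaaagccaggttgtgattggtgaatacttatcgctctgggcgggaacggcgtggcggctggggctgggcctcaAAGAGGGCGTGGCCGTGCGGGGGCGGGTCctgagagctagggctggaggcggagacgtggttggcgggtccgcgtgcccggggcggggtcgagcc
Cyp51: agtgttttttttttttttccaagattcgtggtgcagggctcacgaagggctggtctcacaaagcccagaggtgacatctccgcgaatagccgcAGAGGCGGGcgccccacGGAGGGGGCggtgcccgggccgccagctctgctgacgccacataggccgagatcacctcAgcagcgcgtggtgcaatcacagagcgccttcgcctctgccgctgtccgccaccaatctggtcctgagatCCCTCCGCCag
Cyp20a1: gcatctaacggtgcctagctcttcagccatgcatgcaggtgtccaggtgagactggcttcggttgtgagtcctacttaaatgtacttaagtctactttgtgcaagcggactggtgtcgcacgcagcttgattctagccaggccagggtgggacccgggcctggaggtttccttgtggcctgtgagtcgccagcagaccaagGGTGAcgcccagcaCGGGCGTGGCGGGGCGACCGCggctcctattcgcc
In these 250 bases, 74 were in footprints of both replicates at Cyp46a1, 28 at Cyp51 and 26 at Cyp20a1. The letters GGGCGG, the GC box, occurred 6 times in the 300 bases around the Cyp46a1 start, all on the gene's strand. Counted from the RefSeq start as 0, they began at -240, -131, -75, -15, 5 and 24. The copies at -240, -75 and 5 lay wholly inside footprints of both replicates, those at -131 and -15 inside footprints of replicate 2 alone. The copy at 24 had 5 of its 6 bases covered in replicate 1 and 6 in replicate 2. The copy at 5 did not lie wholly inside the peak of replicate 1, nor the copy at 24 inside that of either replicate. Cyp51 had 1 GC box, at -135, with 4 and 6 of its bases covered.

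The other cholesterol genes fell into a mid-range pair, weak promoters and promoters without a peak. Cyp51, lanosterol demethylase and a step of cholesterol synthesis, had 2.51 in replicate 1 and 3.25 in replicate 2 (2.88 ± 0.520, SD, n = 2), at the 52.1st percentile. It has 2 neighbouring peaks at separate start sites, and the stronger of them differed between replicates: at the 5′ start 2.51 and 2.94, at the inner start 1.76 and 3.25. Cyp39a1, an oxysterol hydroxylase that acts on the product of Cyp46a1, had 2.49 and 2.89 (2.69 ± 0.282). That peak, 215 bp and 245 bp before the Cyp39a1 start, also lay within 500 bp of the start of Slc25a27, so the signal cannot be assigned to 1 of the genes. Cyp7b1, an oxysterol hydroxylase, was weaker at 0.651 and 1.02 (0.834 ± 0.258), the 6.91st percentile.

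Cyp27a1, the mitochondrial sterol hydroxylase, had a peak of 0.695 in replicate 2 and none in replicate 1. Its window held a listed interval in both replicates, with a lowest deposited FDR of 4.50e-02 in replicate 1 and 3.58e-09 in replicate 2. Cyp7a1, the rate-limiting enzyme of the classic bile acid pathway, and Cyp8b1, which sets the kind of bile acid made, had neither a peak nor a listed interval.

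**Figure D2:**
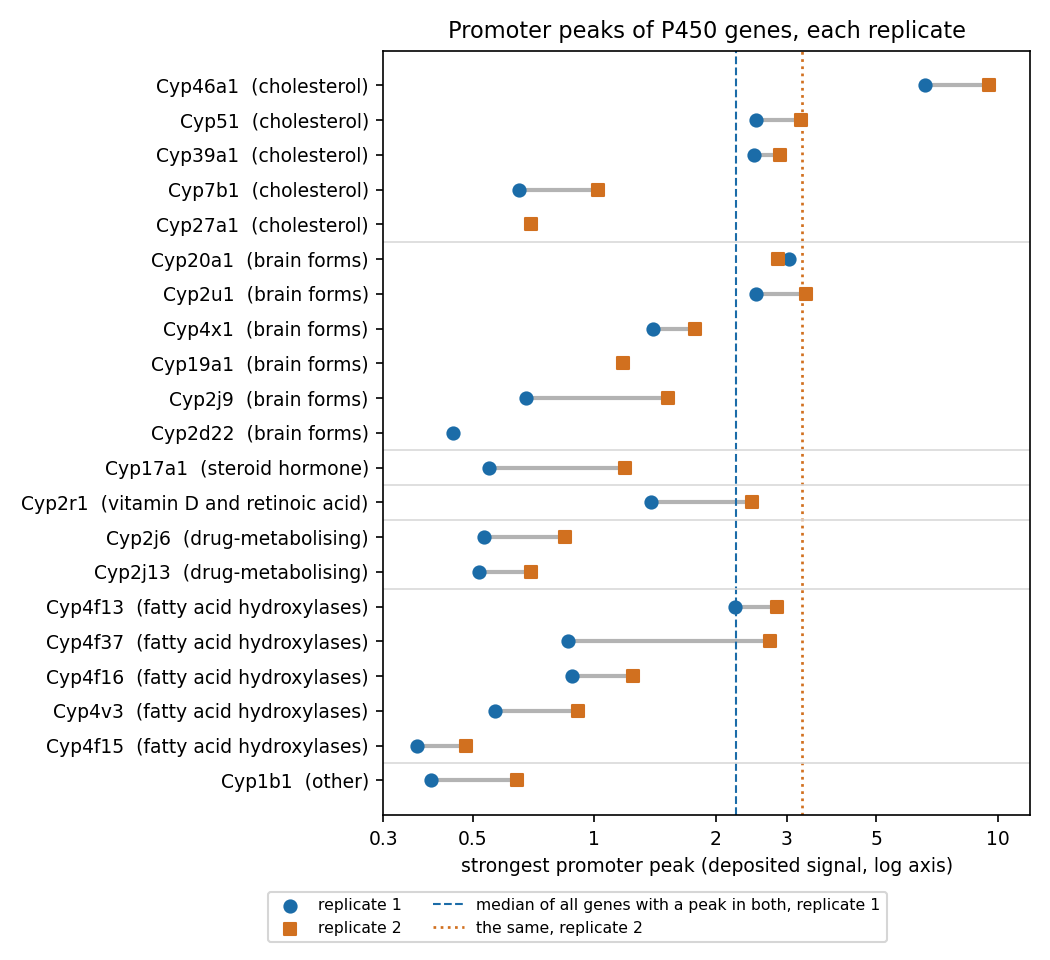
Value of the strongest promoter peak (horizontal log axis, deposited signal) of the 21 members with a peak in at least 1 replicate, circles for replicate 1 and squares for replicate 2, joined where both exist. Cyp46a1 stands at 6.61 and 9.49, to the right of the vertical lines at 2.24 and 3.28, the medians of all genes open in both replicates; 17 of the 18 members with both values were higher in replicate 2.

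Among the brain forms, Cyp20a1, an orphan enzyme with no settled substrate, had 3.03 and 2.85 (2.94 ± 0.126, SD, n = 2). It was the 1 member of the 18 that was not higher in replicate 2. Cyp2u1, a fatty acid hydroxylase of brain and thymus, had 2.51 and 3.35 (2.93 ± 0.592), and an antisense transcript, 4930534D22Rik, starts within 500 bp of that peak. The values of Cyp20a1, Cyp2u1, Cyp51 and Cyp39a1 differed by less than their spread, and their order changed between replicates.

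Cyp4x1, a brain-expressed relative of the fatty acid hydroxylases, had 1.40 and 1.78 (1.59 ± 0.273, SD, n = 2). Its promoter peaks were wide (640 bp and 560 bp), held 16 and 8 footprints, and lay within 500 bp of the start of its antisense gene Cyp4x1os. Cyp2j9, an arachidonic acid epoxygenase described in brain, had 0.676 and 1.52 (1.10 ± 0.600). Its values were 2.26-fold apart, more than the median shift between replicates. They came from overlapping peaks of unlike width, 540 bp in replicate 1 and 200 bp in replicate 2. The other promoter peak of Cyp2j9 in each replicate, with its midpoint nearer the start, had 0.606 and 0.687.

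The remaining brain forms had thin evidence. Cyp19a1, the aromatase that turns androgens into estrogens, had a peak of 1.18 in replicate 2 alone, at an internal start site 86630 bp inside the gene. Its window was listed in both replicates, at 2.33e-02 and 1.49e-06. Cyp2d22, often taken as the mouse counterpart of human CYP2D6, had a peak of 0.447 in replicate 1 alone, and a region 894 bp upstream of the nearest start had 0.671 and 0.856. Cyp26b1, which breaks down retinoic acid, had no promoter peak, while an intronic region 1743 bp upstream of its nearest start had 1.27 and 2.53 (1.90 ± 0.894), the 89.2nd percentile of distal regions.

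Of the steroid hormone genes, Cyp17a1, which acts after Cyp11a1 in steroid synthesis, was the open one, at 0.547 and 1.19 (0.871 ± 0.458, SD, n = 2). Both peaks were placed by an internal start, and they lay 2310 bp and 2292 bp inside the gene; within 100 bp of a start there was no peak. Cyp11a1, Cyp11b1, Cyp11b2 and Cyp21a1 had no peak and no listed interval. The region assigned to Cyp11a1, 20751 bp upstream in intergenic sequence, was strong, at 2.16 and 2.73 (2.45 ± 0.401), the 95.3rd percentile of distal regions. Among the vitamin D and retinoic acid genes, Cyp2r1, a vitamin D hydroxylase, was open at 1.38 and 2.46 (1.92 ± 0.767). Cyp27b1, Cyp24a1, Cyp26a1 and Cyp26c1 had no peak, and of these only Cyp26a1 had a listed interval, in replicate 2.

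Open drug-metabolising genes came from a single array, that of Cyp2j, whose members are known as epoxygenases of arachidonic acid as much as drug enzymes. Cyp2j6 had 0.532 and 0.847 (0.689 ± 0.223, SD, n = 2) and Cyp2j13 had 0.517 and 0.695 (0.606 ± 0.126). These sit at the 4.16th and 2.69th percentiles of open genes, so both were weak. With Cyp2j9 the array had 3 of 8 members open, against 0 of 4 in Cyp2a, 0 of 5 in Cyp2b, 0 of 15 in Cyp2c, 0 of 8 in Cyp2d, 0 of 9 in Cyp3a and 0 of 2 in Cyp1a. Cyp2a5, Cyp2b10, Cyp2c29, Cyp2d9, Cyp2e1, Cyp3a11 and Cyp1a2, the best known liver enzymes of these families, had neither a peak nor a listed interval in either replicate. Around the start of Cyp2c29 only 3.40% of 32-base words were found once in the genome, and around that of Cyp2a5 37.6%. A missing peak says little at these 2 genes.

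A weaker level of evidence changed little for the drug-metabolising genes. Each library comes with a list of intervals at a deposited FDR below 0.05, and among all genes without a peak in either replicate 14.8% had such an interval in at least 1 replicate and 5.91% in both. Among the 52 drug-metabolising genes without a peak, 5 had one in at least 1 replicate, and Cyp2s1 alone in both (2.28e-02 and 8.84e-04). The other 47 had none. In the Cyp4f family, Cyp4f14, Cyp4f39 and Cyp4f40 had one in both without a peak.

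The fatty acid hydroxylases split by family. Of 8 Cyp4a genes, which include the peroxisome-proliferator targets of liver such as Cyp4a10, none had a peak or a listed interval. Of 9 Cyp4f genes, whose enzymes inactivate leukotrienes and hydroxylate long-chain fatty acids, 4 were open. Cyp4f13 was in the mid-range at 2.23 and 2.84 (2.53 ± 0.431, SD, n = 2). Cyp4f16 had 0.880 and 1.25 (1.06 ± 0.261), and Cyp4f15 had 0.363 and 0.481 (0.422 ± 0.0839), the weakest open member. Cyp4f37 had 0.860 and 2.72 (1.79 ± 1.32), a 3.16-fold difference that was the largest between replicates among the 18. Cyp4v3, a fatty acid hydroxylase outside these arrays, had 0.567 and 0.909 (0.738 ± 0.242).

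The Cyp4f37 peak lay 13941 bp inside the gene, near an internal start, and overlapped its last exon. The last exon was accessible in other members of the family too, a pattern singled out after the values were seen. Over 17854 genes with 3 or more exons, 5.06% had a region shared by both replicates over the last exon; in the Cyp4f family 5 of 9 did (Cyp4f13, Cyp4f16, Cyp4f17, Cyp4f18 and Cyp4f37), each over exon 13 of 13. Among the other 89 members with 3 or more exons only Cyp39a1 had one. Values over that exon were 1.00 and 1.37 in Cyp4f13, 1.18 and 2.65 in Cyp4f16, 1.36 and 2.67 in Cyp4f17, 1.12 and 2.08 in Cyp4f18 and 0.860 and 2.72 in Cyp4f37. All 5 were higher in replicate 2. The midpoints of these regions lay from 128 bp (Cyp4f18) to 1183 bp (Cyp4f17) before the 3′ end of the gene. Whether they lie at matching places of the exon was not tested. The pseudogene Cyp4f41-ps had a region over its last exon as well, with 1.08 and 3.06. The regions differed in how much of their sequence recurs elsewhere: the percentage of 32-base words found once in the genome was 73.2% and 78.1% in the regions of Cyp4f13 and Cyp4f16, 93.5% in Cyp4f17, 95.2% in Cyp4f18 and 100% in Cyp4f37 and the pseudogene. Whether that has a part in the result was not tested. The letters of these exons, which can hold untranslated sequence, are not printed.

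**Figure D3:**
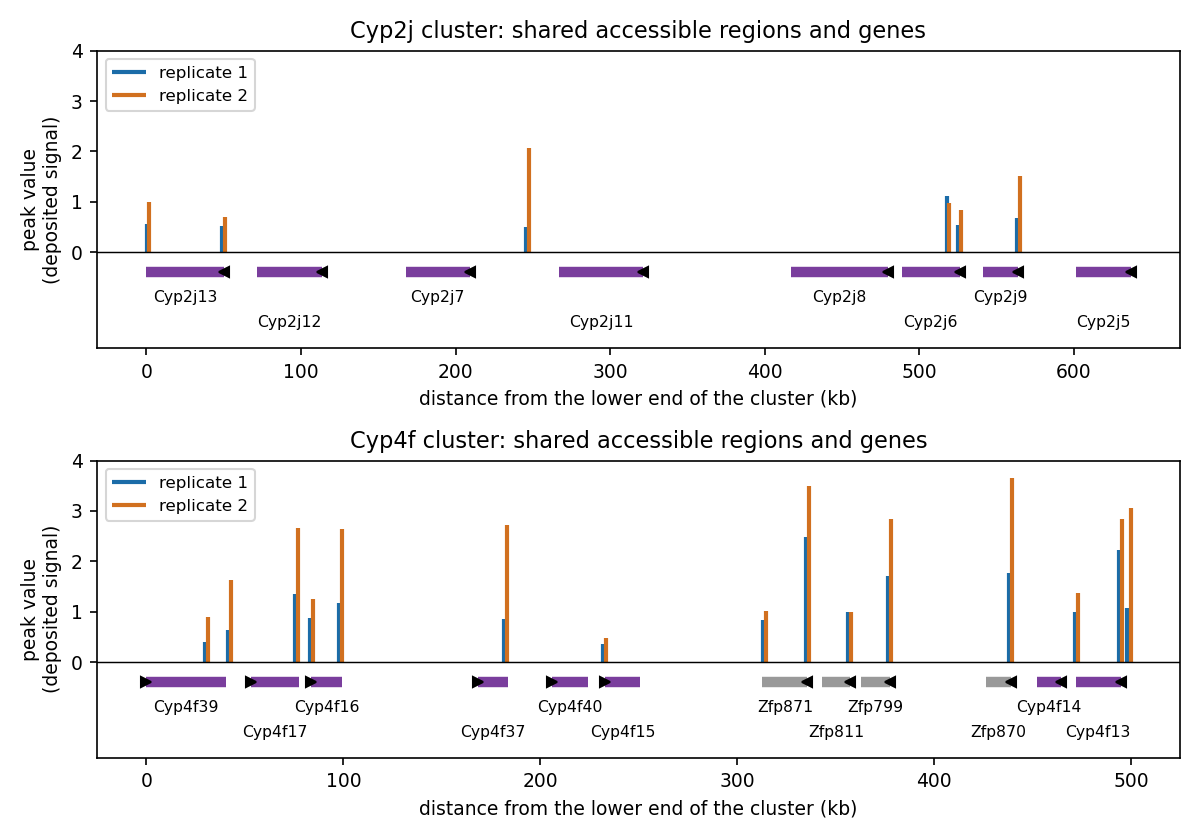
Regions shared by both replicates in the Cyp2j cluster (top) and the Cyp4f cluster (bottom): vertical lines give the peak value (vertical axis, deposited signal) in replicate 1 (left line) and replicate 2 (right line) against distance from the cluster's lower end (kb). Bars below are protein-coding genes, P450 members dark and others grey, with an arrowhead at the start; 6 regions lie in the Cyp2j cluster and 14 in the Cyp4f cluster, which is drawn with 1 more just past its end.

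Seen as stretches of chromosome, the arrays differed widely in how many shared regions they held. Autosomes had 25.8 shared regions per Mb. The Cyp3a array (8 members in 0.768 Mb on chromosome 5) held 0, the Cyp2c array (14 members in 1.18 Mb on chromosome 19) 4, or 3.39 per Mb, and the Cyp2d array (8 in 0.424 Mb on chromosome 15) 2, or 4.72 per Mb. The array on chromosome 7 with Cyp2a, Cyp2b, Cyp2f, Cyp2g, Cyp2s and Cyp2t (13 members in 1.36 Mb) held 7, or 5.16 per Mb. The Cyp4a, Cyp4b and Cyp4x array (10 in 0.541 Mb on chromosome 4) held 3, or 5.54 per Mb, and Cyp4x1 was its only open member. The Cyp2j array (8 in 0.637 Mb on chromosome 4) held 6, or 9.42 per Mb.

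The arrays of Cyp4f and of Cyp1a with Cyp11a stood apart from these. The Cyp4f array (8 members in 0.495 Mb on chromosome 17) held 14, or 28.3 per Mb. All 4 zinc finger genes inside it (Zfp871, Zfp811, Zfp799 and Zfp870) were open too, and their promoters make up part of that number. The stretch from Cyp1a to Cyp11a1 (3 members in 0.350 Mb on chromosome 9) held 28, or 80.0 per Mb, while none of its 3 P450 genes was open and 5 of the other protein-coding genes there were.

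Repeated sequence went with the sparse arrays. Reads that match several places may be lost in mapping, and the mapping settings are not known here. Of the 32-base words in each array, 51.3% were found once in the genome for Cyp3a, 55.3% for Cyp2c, 66.4% for Cyp2d, 73.6% for Cyp2j and 83.9% for Cyp4f, against 87.3% for chromosome 19 as a whole. It was 56.3% for the Cyp4a, Cyp4b and Cyp4x array, 61.8% for the chromosome 7 array and 93.0% for Cyp1a with Cyp11a. The order was not strict: the Cyp4a and chromosome 7 arrays had a lower share than Cyp2d but more regions per Mb. At promoters, 33 of the 54 drug-metabolising genes had under 90% unique words and none of them was open, against 26.6% of all genes under 90%. Of the 21 with 90% or more, 2 were open (9.52%), against 65.4% of all genes with 90% or more. Cyp2e1 (100%), Cyp3a11 (99.5%), Cyp2b10 (97.8%) and Cyp1a2 (97.8%) were among those without a peak. So were Cyp2d9 (79.1%), Cyp2a5 (37.6%) and Cyp2c29 (3.40%), which had under 90%.

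CpG content went the same way. The observed over expected CpG ratio around the 5′-most start was 0.568 at the median of all genes, 0.474 for the cholesterol and brain genes and 0.121 for the drug-metabolising genes, of which 53 of 54 were below 0.4. Over all genes, 18.5% of those below 0.4 were open and 85.1% of the rest. Below 0.2, 9.98% of all genes, 0 of 45 drug-metabolising genes and 0 of 1 cholesterol and brain gene were open. From 0.2 to 0.4 it was 30.2% of all genes, 2 of 8 drug-metabolising genes (25.0%) and 1 of 5 cholesterol and brain genes (20.0%). From 0.4 to 0.6 it was 66.1%, 0 of 1 and 2 of 3. At 0.6 or above it was 90.6% of all genes and 5 of 5 cholesterol and brain genes, with no drug-metabolising gene. Only the range from 0.2 to 0.4 held several genes of both groups, and its counts are too small to compare the groups. The part of CpG content in these counts was not tested. Exceptions ran both ways: Cyp4f13 was in the mid-range with a ratio of 0.240, while Cyp24a1 (0.679) and Cyp26a1 (0.727) had no peak. The ratio describes the 5′-most start, not the internal starts at which Cyp17a1 and Cyp4f37 were called.

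**Figure D4:**
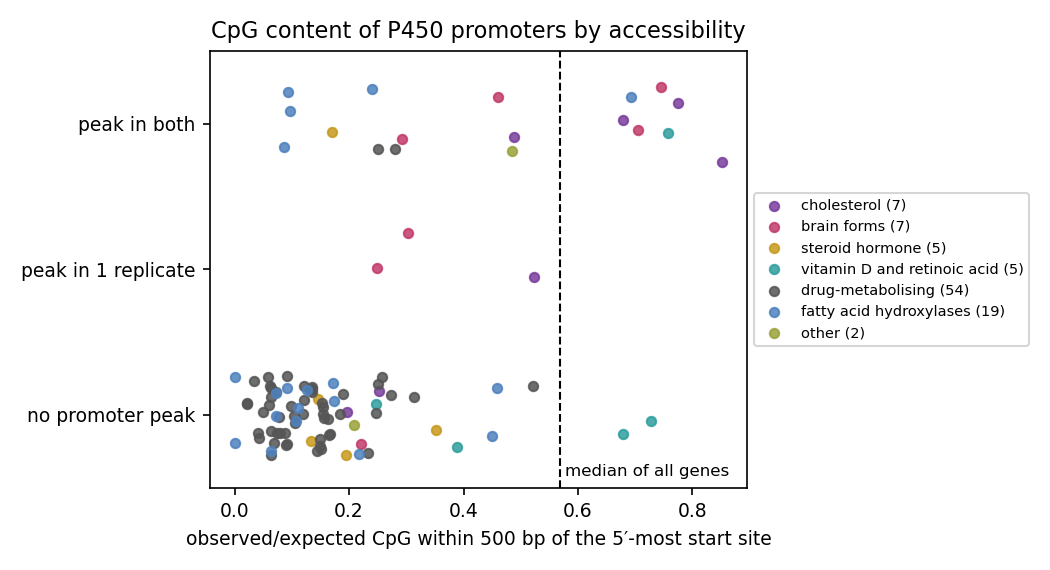
Observed over expected CpG ratio within 500 bp of the 5′-most start (horizontal axis) of the 99 members, in rows by promoter status, coloured by group, with vertical jitter inside a row for legibility only. The dashed line is the median of all genes, 0.568; the drug-metabolising genes gather at the left of the lowest row, and Cyp46a1 is the rightmost point of the top row.

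Some sequence motifs of the promoters differed between the groups and others did not. RefSeq promoters of 300 bases (250 before the start and 50 from it, GRCm38.p6) were found for 76 of the 99 members, and 8 motifs were searched on both strands. A gene counted once if any of its promoters had a match, and the background is the share of all 32851 promoters of that length. TATAAA, the TATA box, was in 13.6% of all promoters, in 28 of 48 drug-metabolising genes, in 3 of 8 cholesterol and brain genes and in 0 of the 13 open members with a promoter in the table. In 15 of the 28 it began 20 to 45 bases before the start, on either strand. In Cyp2c70, Cyp2d9, Cyp2d10, Cyp2d11 and Cyp2d26 that match lay opposite to the gene, whose own strand reads TTTATA there. Near copies, such as Cyp2a4 and Cyp2a5 or Cyp3a41a and Cyp3a41b, were each counted, so the 28 are not independent. GGGCGG was in 35.7% of all promoters, in 5 of 48 drug-metabolising genes, in 4 of 8 cholesterol and brain genes and in 9 of 13 open members. CCAAT was in 37.4% of all promoters and, near that share, in 20 of 48 drug-metabolising genes, and in 5 of 8 and in 9 of 13. For 3 of the 13 (Cyp1b1, Cyp2j13 and Cyp4f37) the scanned promoter held no peak base in at least 1 replicate, since the peaks that called them open lay elsewhere. Without them TATAAA was in 0 of 10, GGGCGG in 7 of 10 and CCAAT in 8 of 10.

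CAAAGTCCA, a sequence bound by the hepatocyte nuclear factor HNF4, was in 0.475% of all promoters and in 11 of the 76 members. Of these, 10 were drug-metabolising genes, 6 of Cyp2c and 4 of Cyp3a, and the 11th was Cyp8b1. None of the 11 had a promoter peak in either replicate. The match lay on the gene's strand in each of them. The letters around it are shown because near copies account for much of the count: Cyp2c69 had the same 31 letters as Cyp2c40, and Cyp3a41a and Cyp3a41b the same as Cyp3a16, so those members are not independent. They are given 5′ to 3′ on the gene's strand with the match in capitals, from RefSeq (GRCm38.p6).
Cyp2c40 (chr19:39812840-39812870, minus strand): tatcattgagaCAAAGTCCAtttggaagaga
Cyp2c65 (chr19:39060879-39060909, plus strand): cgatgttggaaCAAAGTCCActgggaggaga
Cyp2c67 (chr19:39649148-39649178, minus strand): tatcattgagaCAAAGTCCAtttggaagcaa
Cyp2c68 (chr19:39741159-39741189, minus strand): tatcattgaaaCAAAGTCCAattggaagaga
Cyp2c70 (chr19:40187331-40187361, minus strand): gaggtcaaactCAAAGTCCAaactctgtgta
Cyp3a11 (chr5:145879944-145879974, minus strand): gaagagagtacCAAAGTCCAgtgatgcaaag
Cyp3a16 (chr5:145469803-145469833, minus strand): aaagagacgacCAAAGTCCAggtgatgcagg
Cyp8b1 (chr9:121916353-121916383, minus strand): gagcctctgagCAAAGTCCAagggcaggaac
Other motifs were rare in the members. TCACNCCAC, a sterol response element, was in 1.24% of all promoters and in 3 members, all drug-metabolising, and in none of the 8 cholesterol and brain genes with a promoter in the table. TNGCGTG, a xenobiotic response element, was in 5.07% and in 1 member. TGACGTCA, a cAMP response element, was in 1.79% and in 0 members. A match is a string of letters and not a bound site, and a missing match says only that these letters are not in this window.

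**Figure D5:**
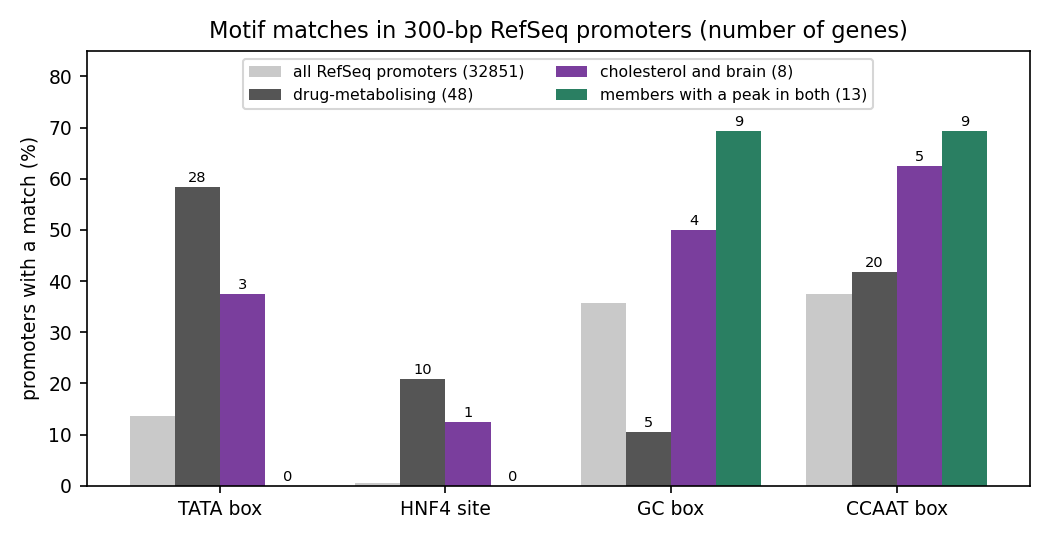
Percent of promoters with a match (vertical axis) for 4 motifs, for all 32851 RefSeq promoters and for 3 overlapping sets of P450 genes, with the number of genes in each set in the key and the number with a match above the bars. The TATA box and HNF4 bars of the drug-metabolising genes (28 and 10 of 48) rise above those of all promoters, and the open members have 0 for both and 9 of 13 for the GC box (7 of 10 where the scanned promoter itself held a peak in both replicates).

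Whole promoters without a peak are shown for 3 genes. Cyp3a11, the main inducible drug-metabolising enzyme of mouse liver, Cyp2e1, which oxidises ethanol, and Cyp8b1 are shown as the 250 bases before the RefSeq start, with TATAAA and CAAAGTCCA in capitals. They lie at chr5:145879855-145880104 (minus strand), chr7:140763569-140763818 (plus strand) and chr9:121916306-121916555 (minus strand). No base of them was in a peak or in a footprint of either replicate.
Cyp3a11: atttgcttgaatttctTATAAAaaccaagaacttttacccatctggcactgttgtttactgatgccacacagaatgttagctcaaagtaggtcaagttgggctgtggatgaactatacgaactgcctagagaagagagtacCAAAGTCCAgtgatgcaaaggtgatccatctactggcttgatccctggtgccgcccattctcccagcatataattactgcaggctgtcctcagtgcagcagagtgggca
Cyp2e1: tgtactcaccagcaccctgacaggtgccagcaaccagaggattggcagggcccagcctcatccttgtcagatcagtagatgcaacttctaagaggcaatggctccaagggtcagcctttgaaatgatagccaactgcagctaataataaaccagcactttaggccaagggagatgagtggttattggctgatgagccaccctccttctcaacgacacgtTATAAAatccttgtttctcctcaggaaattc
Cyp8b1: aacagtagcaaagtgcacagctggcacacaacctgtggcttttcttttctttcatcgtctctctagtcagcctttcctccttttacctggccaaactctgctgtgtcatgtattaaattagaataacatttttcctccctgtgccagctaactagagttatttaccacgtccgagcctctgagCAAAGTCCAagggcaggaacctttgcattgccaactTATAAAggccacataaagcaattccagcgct
In Cyp2e1 and in Cyp8b1 the TATA box began at -31 from the start. In Cyp3a11 the TATAAA letters lay at -234 and the HNF4 letters at -109, and in Cyp8b1 the HNF4 letters lay at -67.

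Footprints were counted only where they touched a promoter peak, so a gene without a peak could have none. Promoter peaks held a footprint in both replicates for 57.7% of all genes and for 15 of the 99 members. Among genes open in both replicates it was 12004 of 12289 over all genes and 15 of 18 members. The 3 open members without one in both were Cyp2j13, Cyp4f15 and Cyp4f37. Cyp46a1 had 7 and 8 footprints, Cyp51 8 and 8, Cyp20a1 7 and 8, Cyp2r1 10 and 7, and Cyp39a1 4 and 4.

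A distal region was a region shared by both replicates that kept at least 500 bp away from each start of any gene, given to the nearest protein-coding start within 100 kb. At least 1 was assigned to 53.9% of all genes and to 36 of 99 members, with 53 regions in all, a mean of 0.535 per member against 1.68 per gene. Distal regions were thus fewer per P450 gene than per gene at large, as promoter peaks were. Cholesterol genes had one in 5 of 7 cases, brain forms in 4 of 7 and drug-metabolising genes in 15 of 54. Cyp7a1 and Cyp8b1, which had no promoter peak, had 1 each, 26688 bp (0.552 and 1.16) and 12396 bp (0.586 and 1.92) upstream. Nearness does not show which gene a region acts on.

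Cyp2j5, a kidney and liver epoxygenase without a promoter peak, had the most distal regions, 4, of which 3 formed a group 54357 bp to 55419 bp upstream. Their values were 0.661 and 0.517, 0.716 and 0.829, and 0.343 and 0.606, and a stronger region 32527 bp upstream had 1.06 and 1.82. Cyp39a1 and Cyp2s1 had 3 each. The Cyp39a1 regions lay inside the gene, with 0.845 and 2.26, 0.517 and 2.09, and 1.33 and 1.58. Those of Cyp2s1, an extrahepatic form, had 0.741 and 1.77 in an exon and 0.875 and 1.93 and 0.427 and 1.61 upstream. The next, with 2 each, were Cyp46a1, Cyp19a1, Cyp1a1, Cyp2c29, Cyp4b1, Cyp4f13, Cyp4f16, Cyp4f18, Cyp4f39 and Cyp2w1.

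Some members had accessible regions outside the promoter window. Cyp1b1, a form of blood vessels and the eye that oxidises estrogens, had a weak promoter peak at an internal start (0.393 and 0.642, 0.517 ± 0.176, SD, n = 2) and, 580 bp upstream of its 5′ start, a region with 1.14 and 3.25 (2.19 ± 1.49). Cyp1a1, the classic target of the aryl hydrocarbon receptor, had no promoter peak and an intronic region 893 bp upstream of its nearest start with 0.696 and 1.62 (1.16 ± 0.655). The strongest distal region of the family, at 1.28 and 4.92 (3.10 ± 2.57), was assigned to Cyp2w1. It lay 9665 bp downstream of the nearest Cyp2w1 start, in an intron of the neighbour 3110082I17Rik. Over the 53 regions the median ratio of replicate 2 to replicate 1 was 1.71, against 1.36 over all 34938 distal regions of genes, and 46 of them (86.8%) were higher in replicate 2, against 83.5%. All 11 exonic regions of members were higher in replicate 2, as were 88.0% of all exonic distal regions.

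Genes that work with P450s were open more or less often depending on the list, against the 59.1% of all genes. Of 19 partners of Cyp51 in cholesterol synthesis and its control, all were open, with medians of 5.01 and 5.88. Cyp51 (2.51 and 3.25) was below 17 of the 19 in replicate 1 and below 18 in replicate 2. All 7 electron donor genes were open. Por, the reductase that serves the microsomal P450s, had 5.49 and 5.50 (5.50 ± 0.00674, SD, n = 2), and Fdx1, the ferredoxin of the mitochondrial forms, was lowest at 0.731 and 1.18 (0.954 ± 0.316). Of 16 regulators of P450 genes, 7 were open (43.8%): Ahr, Arnt, Cebpa, Nr1h2, Nr1h3, Ppara and Rxra. Among those without a promoter peak in either replicate were the pregnane X receptor Nr1i2, the constitutive androstane receptor Nr1i3, Hnf4a, the bile acid receptor Nr1h4, Nr0b2, Nr5a1, Nr5a2 and the vitamin D receptor Vdr.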

How the data were processed

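DNase-seq was measured in 2 replicates of 1 group, and no contrast between groups was tested. The peak lists carry a signal per peak that the authors deposited, on mm10 per the labels. The interval lists carry a deposited FDR (q-value, an adjusted p-value) per interval, below 0.05 in all rows, and the footprint lists a deposited FDR threshold of 0.01. For the aligner, the peak caller, reads that match several places and the normalization, the settings were not given in the sources used here. Each library has a pair of peak lists, and the one with fewer peaks was used.

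Values were divided by the smallest step between them, and all were whole multiples within 0.05 steps. That gives an inferred depth of 201 M reads for replicate 1 and 112 M for replicate 2 (M for mega) and a median peak of 145 reads (exact 95% Poisson interval 122 to 171) and 112 (92.2 to 135). The intervals cover counting error only.

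Gene models were those of GENCODE M21 on the GRCm38.p6 sequence. Peaks of both replicates were merged where they shared at least 1 bp, and 65097 of 106187 merged regions held a peak of each. Neighbouring members were joined into an array when less than 500 kb apart, with at least 3 members. Unique sequence was the share of 32-base words found once on either strand of the genome. RefSeq promoters matched 76 members by symbol, and 23 had no entry.

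Named were all cholesterol and brain genes, members with a promoter peak in at least 1 replicate, those with the most distal regions (top 5, ties included) and the best-known gene of each array. Others named were singled out after their values were seen. Some genes and motifs of the lists are not reported here. Members, role lists and motifs were chosen with earlier results of these data known, so counts stand beside those of all genes, with no test. Overlap counting and word counting were tested on simulated data. Alternatives varied the peak list, promoter window, peak strength, overlap and distal limit, and left out each replicate. Python 3.11.15 was used with numpy 2.4.6, pandas 2.3.3, numba 0.67.0 and matplotlib 3.10.9.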

Additional observations from a re-analysis of the deposited data

How the results depend on the processing

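Counts of open members depended on the setting. With only peaks at or above the median of each list, 10 members were open in place of 18 (all genes 53.2% in place of 59.1%), and the drug-metabolising count fell from 2 to 0. Lost were Cyp17a1, Cyp1b1, Cyp2j13, Cyp2j6, Cyp2j9, Cyp4f15, Cyp4v3 and Cyp7b1. A window of 2000 bp (all genes 63.0%) gave 4 drug-metabolising genes (Cyp1a1 and Cyp2t4 added) and took in Cyp19a1, Cyp26b1, Cyp2d22 and Cyp2w1 as well. It moved the value of Cyp1b1 from 0.517 to 2.19, the region 580 bp upstream. The cholesterol and brain count was 11 of 14 with that window and 6 of 14 with the stronger peaks, in place of 8. A window of 100 bp (all genes 54.7%) lost Cyp17a1, Cyp39a1 and Cyp4f37. Requiring 50% of the peak in the window (all genes 58.5%) lost Cyp4f37. The longer peak list (all genes 63.6%) added Cyp19a1, Cyp2s1, Cyp4f14 and Cyp4f40.

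Distal regions of members numbered 53. They were 91 with the longer list (a mean per gene of 2.83 over all genes in place of 1.68). With the stronger peaks they were 22 (a mean per gene of 0.812 over all genes), in 17 members in place of 36 (all genes 36.2% in place of 53.9%). When 1 replicate was left out they were 68 to 86 (86 without replicate 1), against means per gene of 2.31 to 2.35. With 1 replicate left out, open members ranged from 19 to 20 and open cholesterol and brain genes from 9 to 10 of 14 (all genes 60.6% to 61.6%). Members with a distal region ranged from 39 to 46 (all genes 58.3% to 61.6%). Members with a footprint ranged from 16 to 18 (all genes 59.5% to 60.0%), and the drug-metabolising count was 2 both times. Apart from Cyp1b1 and the members lost, promoter values under the other windows, lists and overlaps moved by less than 1 SD. The causes were not tested. Depth was inferred from the values, so a promoter without a peak was not detectable as open at this depth and is not shown to be closed.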

Other observations

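Accessible sites that belong to no GENCODE start of a P450 gene lay beside 2 members. RefSeq gives Cyp11a1 a start site upstream of the GENCODE starts, which begin at 58006411 on chromosome 9. Of the 300 bases around that RefSeq start, 90 lay in a peak of replicate 1 and 130 in a peak of replicate 2. A GC box 5 bases after it lay in a footprint of replicate 2 (6 of 6 bases) and not of replicate 1. The site was not among the distal regions of Cyp11a1, which leave out regions within 500 bp of a start of any gene. It therefore cannot be assigned to Cyp11a1. Beside Cyp4f13, the first exon of a transcript of the pseudogene Cyp4f41-ps had a shared region with 2.00 and 3.58, near the 2.23 and 2.84 of Cyp4f13 itself.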
